A study of Homo sapiens with 12 samples.

Results

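The 44 genes described here carry out or control mitosis, the step in which a cell condenses and separates its copied chromosomes and divides. They were chosen by name, and no measured value entered the rule, but earlier results of these data were known at the time. The list holds cyclins and the entry switch around CDK1, mitotic kinases, and checkpoint and kinetochore proteins. It also holds spindle proteins, motors, cytokinesis proteins, and the ubiquitin system that ends mitosis. All probes of these symbols were taken by the annotation of the platform, which gave 68 of the 47302 probes on the array. With 1 probe a gene, all 44 were among the 12336 genes tested. RNA came from LM cells, a lung metastatic subline of the MDA-MB-231 breast cancer line. LM-EV cells carried a control (empty) vector, and LM BHLHE40-KD cells stably carried a short hairpin RNA against BHLHE40, a basic helix-loop-helix transcription factor induced by hypoxia. Both lines grew in medium with puromycin and were either untreated or held for 6 h or 48 h in 1% O2 with low glucose (1 mg/ml). The labels give the low glucose, while the methods name only the low oxygen for these arrays. Each of the 6 groups (LM-EV untreated, LM-EV 6 h, LM-EV 48 h, and the same for BHLHE40-KD) had 2 arrays, 1 on each of 2 slides. The design calls them biological repeats, and the arrays of 1 slide are treated as 1 experiment, a reading that rests on the layout. There was 1 knockdown line with 1 hairpin and 1 control line, so a difference between them is a difference between those lines.

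Mitotic genes are transcribed in a wave that peaks at G2 and M phase, under the MuvB, B-MYB and FOXM1 complexes, which bind the cell cycle genes homology region (CHR) of their promoters, often beside CCAAT boxes for the factor NF-Y. Cyclin B with CDK1 starts mitosis, the checkpoint holds it until each kinetochore is attached to the spindle, and the anaphase-promoting complex (APC/C) ends it. In a culture of dividing cells the level of these RNAs follows the share of cells in G2 and M phase as well as the level in each cell. In RNA of whole cultures, fewer cells of a phase and less RNA per cell cannot be told apart.

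The values are normalized hybridization signals on a linear scale. Between 20298 and 21830 probes were detected on an array (median 20755), and the number of arrays limits the precision: the median standard error (SE) of a log2 difference between 2 groups was 0.153 for the members. BHLHE40, the target of the hairpin, had signals of 2992 and 2716 in untreated LM-EV cells (experiments 1 and 2) and of 1771 and 1444 in untreated BHLHE40-KD cells. At 6 h they were 4283 and 6795 in LM-EV and 3410 and 4324 in BHLHE40-KD cells, and at 48 h 3365 and 6482 against 3199 and 3585. In each of the 6 pairs BHLHE40-KD cells had the lower value, with log2 differences of -0.83, -0.49 and -0.46 in the order untreated, 6 h and 48 h (SE 0.292), but no difference passed (limma adjusted p = 0.0894, 0.286 and 0.322). Of 6 markers of MDA-MB-231 cells, VIM, CD44, KRT8, KRT18 and PLAUR were detected on all 12 arrays and SPARC on the 6 LM-EV arrays (336 to 579) but on no BHLHE40-KD array, where it was at the floor of 16. CD44 was also lower in BHLHE40-KD cells (-0.99, -0.78 and -1.02), and PLAUR higher (0.46, 0.53 and 0.51, limma adjusted p of all 6 values from 0.004 to 0.0423). The endothelial marker PECAM1, detected on all 12 arrays, was higher in BHLHE40-KD cells at 48 h (0.99, 1.12 and 1.32, limma adjusted p = 0.0781, 0.054 and 0.0351), and CD68 when untreated (0.66, 0.40 and 0.29, 0.0289, 0.126 and 0.25). These differences go with the line, and their part in the line differences below was not tested. PGR, CDH5 and SFTPC were detected on no array, ESR1 and PTPRC on 1, CDH1 and DCN on 2, COL1A1 on 6 and GATA3 on 11. ERBB3 and CD68 were detected on all 12, with CD68 at 11003 to 25041.

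The promoters of the 4 genes that differed between the lines at every time are shown because they place the members' known elements. They run from 250 bases before to 50 bases after the annotated start (RefSeq, GRCh38.p14), 5′ to 3′ on the strand of the gene, and capitals mark CHR elements (TTTGAA or TTCGAA) and CCAAT boxes on either strand. HMMR lies on the plus strand at chr5:163460382-163460681, CKAP2 on the plus strand at chr13:52455738-52456037, CDC25C on the minus strand at chr5:138331755-138332054 and CCNB2 on the plus strand at chr15:59104896-59105195. CDC25C has 4 listed starts, of which 2 hold both elements and 2 hold neither, and the start shown is 1 of the first kind.
HMMR: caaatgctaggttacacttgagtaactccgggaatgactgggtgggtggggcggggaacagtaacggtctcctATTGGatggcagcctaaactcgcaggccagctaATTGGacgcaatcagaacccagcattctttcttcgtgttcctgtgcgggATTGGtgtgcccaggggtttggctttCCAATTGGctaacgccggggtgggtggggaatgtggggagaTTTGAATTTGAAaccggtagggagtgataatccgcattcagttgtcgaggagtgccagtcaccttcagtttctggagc
CKAP2: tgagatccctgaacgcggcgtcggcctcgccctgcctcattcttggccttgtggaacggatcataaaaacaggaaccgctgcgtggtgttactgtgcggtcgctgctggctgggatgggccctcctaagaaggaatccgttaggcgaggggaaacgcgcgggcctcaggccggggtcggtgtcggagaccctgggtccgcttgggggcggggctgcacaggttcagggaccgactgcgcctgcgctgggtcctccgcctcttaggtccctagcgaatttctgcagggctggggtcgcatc
CDC25C: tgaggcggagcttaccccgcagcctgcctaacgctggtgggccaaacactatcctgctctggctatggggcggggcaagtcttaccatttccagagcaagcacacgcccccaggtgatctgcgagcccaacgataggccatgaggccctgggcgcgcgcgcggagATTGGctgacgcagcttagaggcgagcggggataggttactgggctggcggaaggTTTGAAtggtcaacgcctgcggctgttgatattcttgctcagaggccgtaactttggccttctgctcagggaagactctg
CCNB2: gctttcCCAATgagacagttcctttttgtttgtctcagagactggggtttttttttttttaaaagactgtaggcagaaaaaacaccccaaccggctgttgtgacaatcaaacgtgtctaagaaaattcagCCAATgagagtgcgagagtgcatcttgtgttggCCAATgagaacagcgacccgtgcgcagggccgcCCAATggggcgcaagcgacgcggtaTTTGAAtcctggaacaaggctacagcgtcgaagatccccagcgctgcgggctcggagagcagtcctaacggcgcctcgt
HMMR held CHR elements 28 and 22 bases before the start and 5 CCAAT boxes, 2 of them overlapping. In CCNB2 a CHR element lay 29 bases before the start, with 4 CCAAT boxes from 244 to 54 bases before it. In CDC25C the CHR element lay at 30 and the CCAAT box at 85 bases before this start. CKAP2 held no match to either motif in this window.

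Of the 44 members, 37 matched an entry of this promoter table (AURKA, BIRC5, BUB3, FOXM1, TPX2, TTK and UBE2C did not), and a gene was counted if any of its listed starts held the motif. A CHR element was found in 28 of 37 (75.7%), against 15.8% of 9858 other genes tested and 19.5% of the 27305 genes of the table. A CCAAT box was found in 30 of 37 (81.1%, against 43.5% and 39.7%), and both elements in 24 of 37 (64.9%, against 8.49% and 9.02%). The E-box CACGTG, the element to which BHLHE40 binds, was in 5 of 37 (13.5%), against 12.4% of the other genes tested and 8.77% of the table. The members' promoters thus held both elements more often than other promoters of the same length, and the E-box at about the same share as the other genes tested. These shares describe letters in a window, and binding was not measured.

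All 44 members were well within the measured range: the main probe of each was detected on all 12 arrays, none of its values was at the floor of 16, and the highest normalized value on any array was 72594. Averaged over the 44 genes, the log2 signal in LM-EV cells was 12.44 and 12.36 when untreated, 12.45 and 12.32 at 6 h, and 12.27 and 12.06 at 48 h. In BHLHE40-KD cells it was 12.30 and 12.18, then 12.31 and 12.23, then 12.20 and 12.01. Within each experiment BHLHE40-KD cells had the lower mean at each time, and within each line it was lowest at 48 h. A mean is moved by single large differences, such as that of HMMR below, and does not describe most members. Between the lines 25 members were lower and 19 higher in BHLHE40-KD cells when untreated and at 6 h. At 48 h 20 were lower and 24 higher, with a median difference of 0.03.

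**Figure D1:**
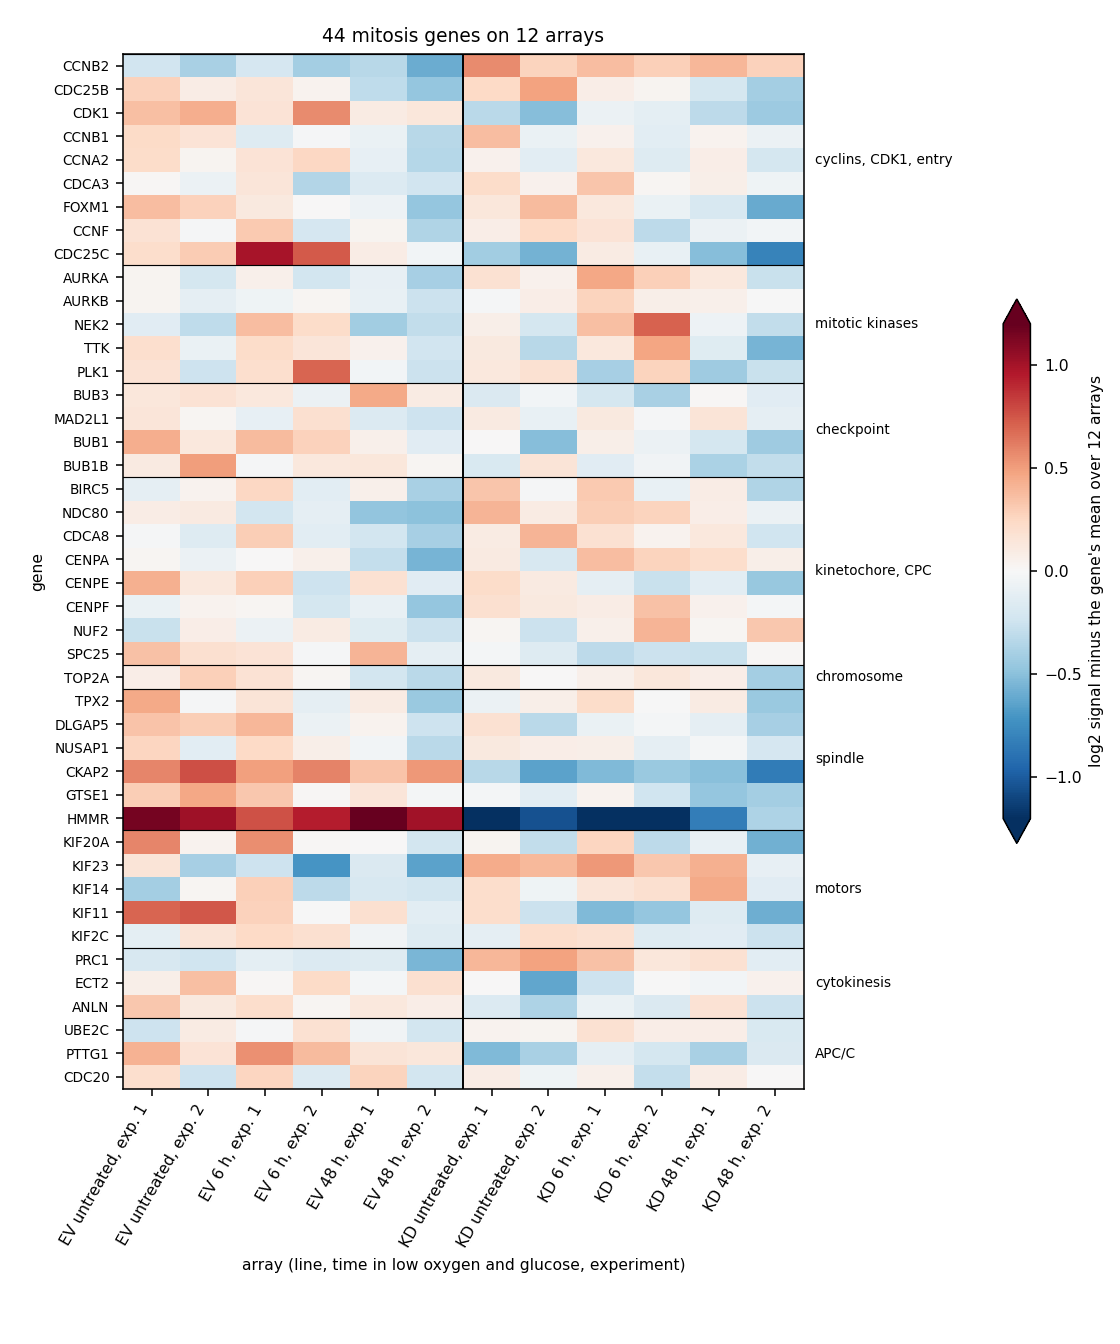
Each cell is 1 member gene (y axis) on 1 array (x axis, line, time and experiment), coloured by its log2 signal minus the mean of that gene over the 12 arrays; the members are grouped by role. HMMR and CKAP2 are high on all 6 LM-EV arrays and low on all 6 BHLHE40-KD arrays, CCNB2 is the reverse, and most other members differ less between the arrays.

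Between BHLHE40-KD and LM-EV cells, 10 of the 44 members differed when untreated (2 higher and 8 lower), 8 at 6 h (3 higher and 5 lower) and 7 at 48 h (4 higher and 3 lower). A gene counted as different when its limma p, adjusted by Benjamini-Hochberg over the 12336 genes, was under 0.05. Of all genes tested, 18.2% passed in the untreated cells (9.5% higher and 8.71% lower), 18.4% at 6 h (8.63% higher and 9.78% lower) and 16.5% at 48 h (7.89% higher and 8.6% lower). The members thus passed at about the share of all genes, and the median log2 difference of the members was -0.06, -0.09 and 0.03, against 0.02, 0.01 and 0.01 over all genes. At 1 or more times 14 members passed. Of the other genes, 39.9% did on 6 chromosomes singled out below and 24.7% elsewhere. With these settings only HMMR, CKAP2, CDC25C and CCNB2 passed at all 3 times, 4 of 44 where 9.05% of all genes did. Paired within an experiment and a time, BHLHE40-KD was above LM-EV in 6 of 6 pairs for CCNB2, KIF23, PRC1, AURKA, CENPF and CDCA3 (20.3% of all genes). It was below in 6 of 6 pairs for 13 members (19% of all genes): HMMR, CKAP2, CDC25C, PTTG1, KIF11, CDK1, GTSE1, BUB1, KIF20A, BUB3, BUB1B, ECT2 and CENPE. By the rule of the methods, a 1.5-fold difference in both experiments, CCNB2 and PRC1 were higher and CDK1, CDC25C, HMMR and CKAP2 lower in untreated BHLHE40-KD cells (16.2% of all genes in either direction). At 6 h KIF23 was higher and CDC25C, PTTG1, HMMR and CKAP2 lower (16.6%), and at 48 h CCNB2 was higher and CDC25C, HMMR and CKAP2 lower (15.2%).

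**Figure D2:**
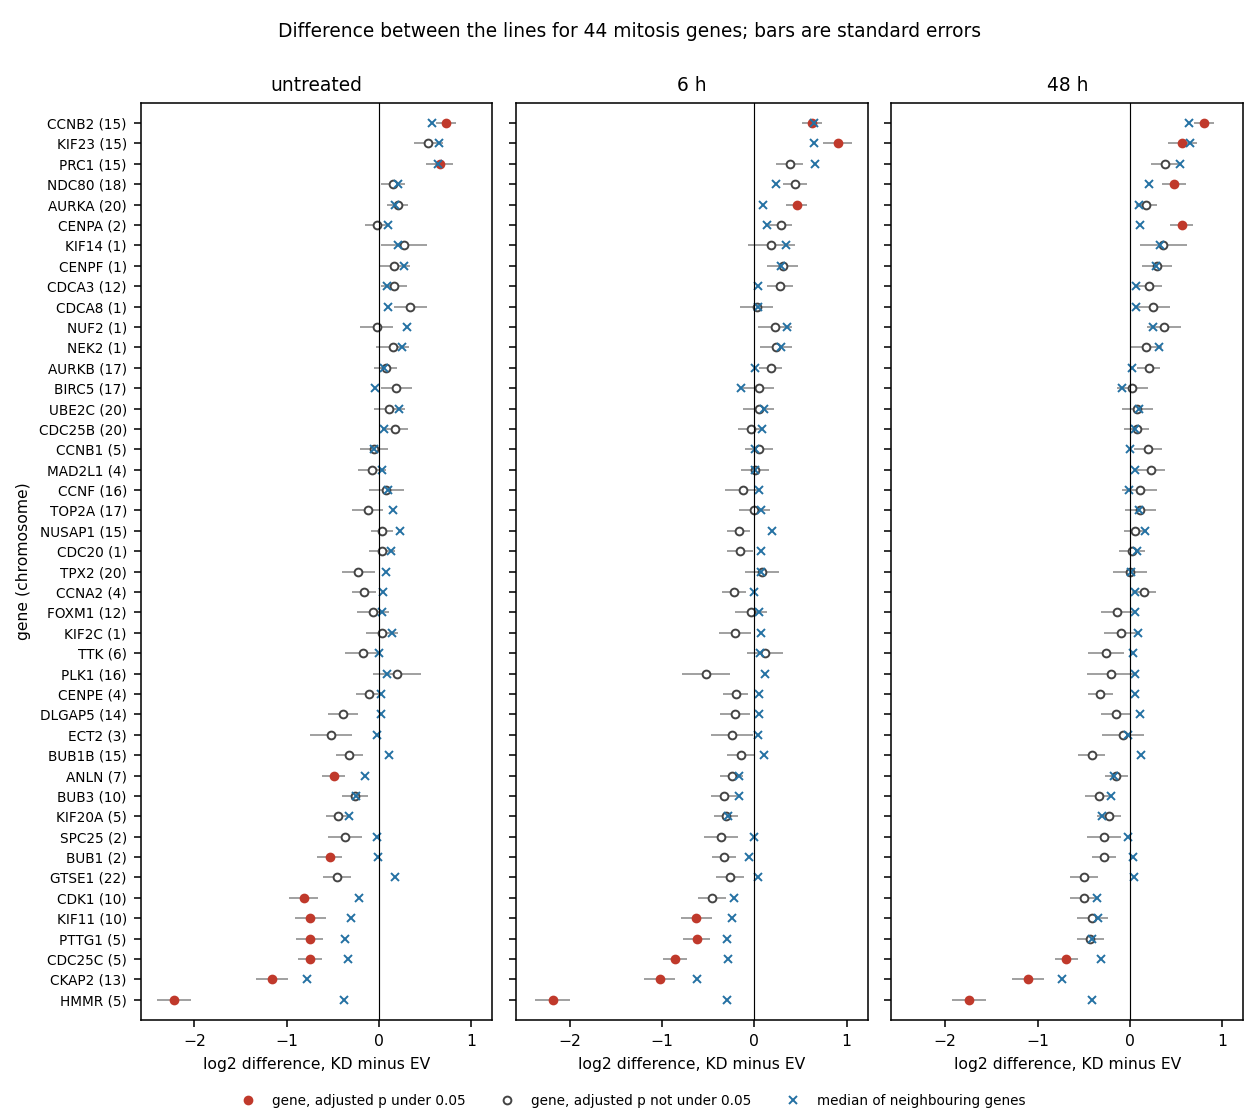
Log2 difference of BHLHE40-KD minus LM-EV cells (x axis) for each of the 44 members (y axis, chromosome in parentheses) at each time; bars are limma SEs, filled points have an adjusted p under 0.05, and crosses are the median of the neighbouring genes on the chromosome. HMMR lies far to the left at each time (-2.22, -2.19 and -1.74), left of the cross of its neighbours, while CCNB2, KIF23 and PRC1 lie to the right, as do the crosses of their neighbours (0.54 to 0.66).

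Among the 6 spindle proteins HMMR, the hyaluronan-mediated motility receptor that also binds spindle microtubules, had the largest difference between the lines of any member. Its signal in LM-EV cells was 748 and 683 when untreated, 573 and 648 at 6 h, and 821 and 681 at 48 h. In BHLHE40-KD cells it was 144 and 163, 142 and 126, and 191 and 262. The 6 arrays of one line did not overlap with the 6 of the other, and the lowest LM-EV value was above the highest BHLHE40-KD value. On the log2 scale HMMR differed by -2.22 (4.66-fold lower in BHLHE40-KD cells), -2.19 (4.55-fold) and -1.74 (3.35-fold) (SE 0.189, limma adjusted p = 0.000568, 0.000566 and 0.00159). A second HMMR probe had signals of 668 to 888.7 on the LM-EV arrays and of 65.9 to 149.6 on the BHLHE40-KD arrays, with differences of -3.00, -3.03 and -3.31. The calls of HMMR were kept in all 21 alternative settings at each time.

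CKAP2, a microtubule-stabilizing protein of the spindle poles, had signals in LM-EV cells of 3145 and 3578, 2943 and 3161, and 2657 and 3006 (untreated, 6 h and 48 h). In BHLHE40-KD cells they were 1668 and 1348, 1451 and 1542, and 1478 and 1170. Again no BHLHE40-KD array reached the lowest LM-EV array. The differences were -1.16, -1.03 and -1.10 (SE 0.172, limma adjusted p = 0.00522, 0.00807 and 0.00692), and a second probe gave -1.32, -1.08 and -0.99. Its call at 6 h was lost without the BHLHE40-KD 6 h array of experiment 1 or the LM-EV 6 h array of experiment 2 (adjusted p = 0.0547 and 0.0615), and that at 48 h without the LM-EV 48 h array of experiment 2 (0.0529). TPX2, which activates the Aurora A kinase on the spindle, had LM-EV signals of 14235 and 10261, 11563 and 9648, and 11101 and 7601. Its BHLHE40-KD signals were 9868 and 10865, 12110 and 10329, and 11123 and 7619. The lines overlapped at each time for TPX2, with differences of -0.22, 0.08 and 0.00 (SE 0.182). GTSE1, a microtubule-binding protein of G2 and S phase, was lower in 6 of 6 pairs without passing (-0.46, -0.26 and -0.50, SE 0.149, adjusted p = 0.0733, 0.264 and 0.0617). DLGAP5 (-0.39, -0.21 and -0.15) and NUSAP1 (0.04, -0.17 and 0.06), both microtubule-bundling proteins, did not pass.

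**Figure D3:**
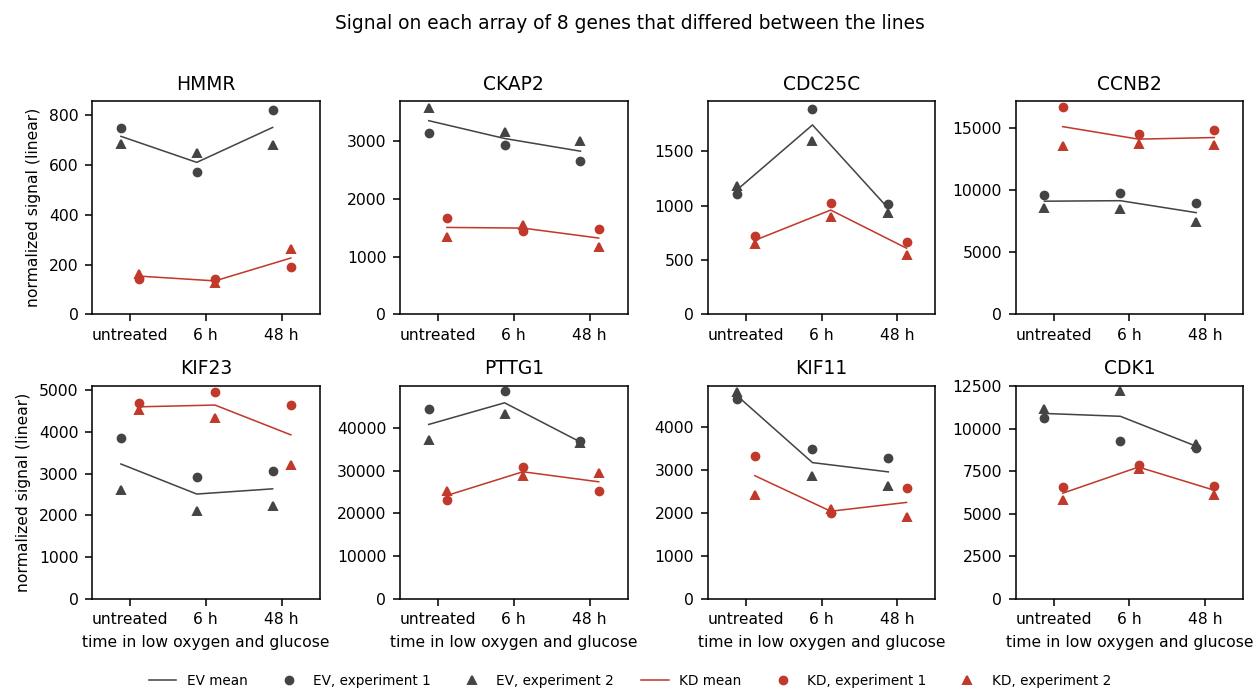
Normalized hybridization signal on a linear scale (y axis, from 0) by time in low oxygen and glucose (x axis) for 8 members that differed between the lines at 1 or more times; points are arrays, circles experiment 1 and triangles experiment 2, and lines join the group means of 2 arrays. HMMR, CKAP2 and PTTG1 keep the lines apart on all arrays, with BHLHE40-KD lower, and CCNB2 keeps them apart with BHLHE40-KD higher.

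Among the 9 genes of mitotic entry, CCNB2 and CDK1, a cyclin and the kinase it activates, differed in opposite directions. CCNB2 had signals in LM-EV cells of 9619 and 8576, 9783 and 8495, and 8924 and 7432, and in BHLHE40-KD cells of 16674 and 13518, 14500 and 13678, and 14823 and 13615. All 6 BHLHE40-KD arrays lay above all 6 LM-EV arrays. The differences were 0.73, 0.63 and 0.80 (SE 0.11, limma adjusted p = 0.00574, 0.00975 and 0.00429). At 6 h the call was lost without either LM-EV 6 h array or without the BHLHE40-KD 6 h array of experiment 2 (adjusted p = 0.0631, 0.0653 and 0.0573). CDK1 had signals of 10617 and 11171, 9252 and 12201, and 8859 and 9078 in LM-EV cells, and of 6599 and 5811, 7868 and 7619, and 6642 and 6116 in BHLHE40-KD cells. The arrays of the lines did not overlap, but only the untreated difference passed. It was -0.82 there, and -0.46 at 6 h and -0.49 at 48 h (SE 0.155, limma adjusted p = 0.0131, 0.0824 and 0.0708). The untreated call was lost without either LM-EV untreated array (0.0707 and 0.086) or the BHLHE40-KD untreated array of experiment 2 (0.0793). CCNB1, the other B-type cyclin of the list, differed by -0.05, 0.05 and 0.20 (SE 0.151), and CCNA2, the cyclin of S and G2 phase, by -0.16, -0.22 and 0.15 (SE 0.129), none of which passed.

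CDC25C and CDC25B are phosphatases that remove the inhibitory phosphates of CDK1. CDC25C had LM-EV signals of 1106 and 1181, 1895 and 1594, and 1018 and 932.6, and BHLHE40-KD signals of 717.6 and 645.4, 1023 and 897.5, and 670.5 and 547.6. At each time both BHLHE40-KD arrays lay below both LM-EV arrays, while over the whole course the BHLHE40-KD cells at 6 h overlapped with the LM-EV cells at 48 h. The mean of its 3 probes gave smaller differences, of -0.72, -0.61 and -0.47 (limma adjusted p = 0.00773, 0.014 and 0.0344). By the brightest probe the differences were -0.75, -0.86 and -0.69 (SE 0.127, limma adjusted p = 0.00865, 0.00516 and 0.0127). Without the LM-EV untreated array of experiment 2 the untreated call was lost (adjusted p = 0.0676), and without either LM-EV 48 h array or the BHLHE40-KD 48 h array of experiment 2 that at 48 h was lost (0.0685, 0.0752 and 0.0819). CDC25B, in contrast, had signals of 13261 and 11595, 12086 and 11269, and 8847 and 7897 in LM-EV cells and of 12887 and 15247, 11525 and 11159, and 9416 and 8235 in BHLHE40-KD cells. The lines overlapped for CDC25B at each time, with differences of 0.18, -0.04 and 0.08 (SE 0.138). FOXM1, the transcription factor of the G2 and M phase program, differed by -0.07, -0.04 and -0.14 (SE 0.172), the ubiquitin ligase subunit CCNF by 0.08, -0.13 and 0.11 (SE 0.19), and CDCA3, which targets the kinase WEE1 for destruction, by 0.16, 0.28 and 0.21 (SE 0.14). None of these 3 passed.

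The 5 motors of the list split between the directions. KIF11, the motor that pushes the spindle poles apart, had LM-EV signals of 4673 and 4828, 3495 and 2864, and 3288 and 2638, and BHLHE40-KD signals of 3333 and 2416, 1999 and 2091, and 2588 and 1913. Both BHLHE40-KD arrays were below both LM-EV arrays at each time. KIF11 passed when untreated (-0.74) and at 6 h (-0.63), and not at 48 h (-0.41, SE 0.168, limma adjusted p = 0.023, 0.039 and 0.144). Its untreated call was lost without either LM-EV untreated array (0.0517 and 0.153) or the BHLHE40-KD untreated array of experiment 2 (0.126), and its 6 h call without any 1 of the 8 arrays at 6 h and 48 h (0.0504 to 0.204). KIF23, a subunit of centralspindlin in the midzone, had LM-EV signals of 3851 and 2612, 2913 and 2110, and 3059 and 2214, and BHLHE40-KD signals of 4690 and 4514, 4964 and 4325, and 4647 and 3213. Both BHLHE40-KD arrays were above both LM-EV arrays at each time. KIF23 passed at 6 h (0.90) and at 48 h (0.57) but not when untreated (0.54, SE 0.155, limma adjusted p = 0.00894, 0.0448 and 0.0511), and the call at 6 h was lost without the LM-EV or the BHLHE40-KD 6 h array of experiment 2 (0.0645 and 0.0553). The call at 48 h was kept without either untreated BHLHE40-KD array and lost without any 1 of the other 10 (0.0543 to 0.199). KIF20A, a motor of the midzone, had LM-EV signals of 6885 and 4737, 6752 and 4633, and 4619 and 3940, and BHLHE40-KD signals of 4692 and 3741, 5493 and 3703, and 4319 and 3070. It was lower in 6 of 6 pairs, with overlap of the lines at 6 h and 48 h (-0.45, -0.31 and -0.23, SE 0.128) and just missed the threshold when untreated (limma adjusted p = 0.0502). KIF14 (0.27, 0.18 and 0.37, SE 0.252) and the microtubule depolymerase KIF2C (0.03, -0.21 and -0.10, SE 0.178) did not pass.

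Of the 3 proteins of cytokinesis, PRC1, which bundles the microtubules of the midzone and there works with KIF23's complex, was also higher. Its LM-EV signals were 12016 and 11646, 12675 and 12312, and 12388 and 9388, and its BHLHE40-KD signals 18108 and 19285, 17585 and 15145, and 15650 and 12605. At each time the arrays of the lines did not overlap, and the untreated difference of 0.66 passed, while 0.39 at 6 h and 0.38 at 48 h did not (SE 0.147, limma adjusted p = 0.0218, 0.112 and 0.121). The call was lost without either LM-EV untreated array (0.129 and 0.0869) or the BHLHE40-KD untreated array of experiment 2 (0.118). ANLN, the anillin scaffold of the contractile ring, was lower when untreated, at 6032 and 5250 against 8506 and 7356 in LM-EV cells (-0.49, SE 0.125, limma adjusted p = 0.0345) and differed by -0.25 and -0.14 later. Its call was lost without any 1 of the 4 untreated arrays (0.102 to 0.154) or either LM-EV 6 h array (0.0593). ECT2, which activates RhoA for the ring, differed by -0.52, -0.24 and -0.08 with a wide SE of 0.226 and did not pass.

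PTTG1, the securin that holds separase inactive until anaphase, was the member of the APC/C group that differed. Its LM-EV signals were 44429 and 37276, 48632 and 43208, and 36941 and 36500, and its BHLHE40-KD signals 23084 and 25343, 30805 and 28717, and 25343 and 29488. All BHLHE40-KD arrays lay below all LM-EV arrays. The differences of -0.75 and -0.62 passed when untreated and at 6 h, and -0.43 at 48 h did not (SE 0.145, limma adjusted p = 0.0135, 0.0256 and 0.0868). The untreated call was lost without the LM-EV or the BHLHE40-KD array of experiment 1 (0.0958 and 0.0665) and the 6 h call without any 1 of the 4 arrays at 6 h (0.0793 to 0.149). PTTG1 has near-identical copies in the genome, so its probes may not read it alone. UBE2C, the ubiquitin-conjugating enzyme of the APC/C, had LM-EV signals of 36438 and 46229, 42905 and 49065, and 41943 and 37101, and BHLHE40-KD signals of 44522 and 44303, 48968 and 45822, and 45700 and 38073. The lines overlapped when untreated, at 6 h and at 48 h (0.11, 0.05 and 0.08, SE 0.167), and CDC20, the activator of the APC/C, differed by 0.04, -0.16 and 0.03 (SE 0.14).

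Of the 5 mitotic kinases, AURKA, which matures the spindle poles, had LM-EV signals of 18108 and 15296, 18435 and 15170, and 16574 and 13392, and BHLHE40-KD signals of 20070 and 18307, 24412 and 21629, and 19285 and 14721. Both BHLHE40-KD arrays lay above both LM-EV arrays when untreated and at 6 h, the lines overlapped at 48 h, and only the difference at 6 h passed (0.20, 0.46 and 0.18, SE 0.113, limma adjusted p = 0.254, 0.0308 and 0.327). That call was lost without any 1 of the 4 arrays at 6 h (0.0903 to 0.144) or either LM-EV untreated array (0.0543). NEK2 (0.15, 0.24 and 0.17), AURKB (0.07, 0.18 and 0.20), TTK (-0.17, 0.12 and -0.26) and PLK1 (0.20, -0.52 and -0.20, SE 0.26) did not pass. Among the 4 proteins of the spindle checkpoint, the kinase BUB1 had LM-EV signals of 5082 and 4106, 4894 and 4574, and 3933 and 3419, and BHLHE40-KD signals of 3771 and 2640, 3953 and 3595, and 3256 and 2799. Both BHLHE40-KD arrays were below both LM-EV arrays at each time, and the untreated difference passed (-0.53, -0.33 and -0.28, SE 0.132, limma adjusted p = 0.0311 when untreated). The BUB1 call was lost without either LM-EV untreated array (0.158 and 0.121), the BHLHE40-KD untreated array of experiment 2 (0.152) or either LM-EV 48 h array (0.0513). BUB3, the checkpoint protein that recruits BUB1 to kinetochores, had LM-EV signals of 31865 and 32755, 31600 and 27630, and 39778 and 31077, and BHLHE40-KD signals of 25689 and 28343, 25041 and 22196, and 29267 and 26429. The lines did not overlap at any single time, but the differences of -0.26, -0.33 and -0.34 did not pass with this probe (SE 0.143). The other BUB3 probes are given at the end. BUB1B (-0.32, -0.15 and -0.41) and MAD2L1 (-0.07, 0.01 and 0.23), which with BUB3 inhibit CDC20, did not pass either.

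The 8 kinetochore and chromosomal passenger genes held 2 that were higher at 48 h. CENPA, the histone H3 variant that marks centromeres, had LM-EV signals of 3501 and 3288, 3449 and 3590, and 2828 and 2337, and BHLHE40-KD signals of 3701 and 3007, 4457 and 4136, and 3996 and 3621. The lines overlapped when untreated and were apart at 6 h and 48 h. The difference was -0.02, 0.29 and 0.57 (SE 0.125), and that at 48 h passed (limma adjusted p = 0.024) but was lost without any 1 of the 4 arrays at 48 h (0.0729 to 0.137). NDC80, the kinetochore subunit that grips microtubules, had LM-EV signals of 4519 and 4567, 3649 and 3942, and 3062 and 3022, and BHLHE40-KD signals of 5640 and 4538, 5219 and 5094, and 4477 and 4038. It differed by 0.16, 0.44 and 0.48 (SE 0.131, limma adjusted p = 0.459, 0.0554 and 0.0452), with overlap of the lines when untreated. Its call at 48 h was kept without either untreated BHLHE40-KD array and lost without any 1 of the other 10 (0.0612 to 0.186). NUF2, the partner of NDC80 in the same complex, differed by -0.03, 0.22 and 0.37 (SE 0.183), and SPC25, of the other end of that complex, by -0.37, -0.36 and -0.28 (SE 0.182). BIRC5 (survivin), a subunit of the chromosomal passenger complex, had LM-EV signals of 5352 and 5947, 6844 and 5279, and 6010 and 4388, and BHLHE40-KD signals of 7243 and 5720, 7158 and 5398, and 6106 and 4478, so that the lines overlapped at each time. BIRC5 (0.19, 0.05 and 0.03), its partner CDCA8 (0.34, 0.03 and 0.26), CENPF (0.17, 0.31 and 0.30) and the kinetochore motor CENPE (-0.11, -0.20 and -0.32) did not pass. TOP2A, the topoisomerase that untangles sister chromatids, had LM-EV signals of 22596 and 25982, 24113 and 21701, and 18307 and 17051, and BHLHE40-KD signals of 23163 and 21400, 22309 and 23419, and 22596 and 16153. The lines overlapped for TOP2A at each time (-0.12, 0.00 and 0.11, SE 0.168).

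The genes around the members in the same pathways were counted in lists written by hand. Their counts stand against the 18.2%, 18.4% and 16.5% of all genes that passed between the lines when untreated, at 6 h and at 48 h. Of 47 measured further mitosis genes, 5, 5 and 3 passed, a smaller share, of which 1 was higher, at 6 h. Among them were BORA, which activates PLK1 through Aurora A (-1.31, -0.90 and -0.87), and PIMREG (-0.87, -0.71 and -0.67), both lower at all 3 times. Of 31 kinetochore and centromere genes 5 passed when untreated (2 higher and 3 lower), 3 at 6 h (all lower) and 5 at 48 h (2 higher and 3 lower), with SKA3 (-0.91, -1.29 and -0.76) and SKA1 (-0.73, -0.81 and -1.08), subunits of the SKA complex that couples kinetochores to microtubules, lower at all 3 times. ZW10, of the complex that brings dynein to kinetochores, was lower at 6 h and 48 h (-0.67 and -0.65), and its partner ZWILCH was higher at 48 h (0.62). Of 14 APC/C subunits, CDC16 (-0.87, -0.89 and -0.78) and CDC23 (-0.72, -0.70 and -0.64) were lower at all 3 times and no other passed. Of 16 condensin and cohesin genes 5, 4 and 2 passed, all lower, with PDS5B, a regulator of cohesin, at -0.92 when untreated and -1.01 at 6 h. Of 21 genes of MuvB and its regulators, 4 passed when untreated (2 higher and 2 lower), 2 at 6 h (1 higher) and 1 at 48 h. When untreated, the retinoblastoma protein RB1 (-0.92) and TFDP1 (-0.56), the dimerization partner of E2F factors, were lower, and the NF-Y subunit NFYB (0.87) and CDKN1A (0.58), the inhibitor p21 of the cyclin-dependent kinases, were higher. TFDP1 was lower at 6 h and 48 h as well (-0.60 and -0.62).

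The line differences of the members were also set against their place in the genome, a description chosen after the values were seen. Chromosomes and gene order came from RefSeq, and the medians below leave out the members. The 209 other genes on chromosome 13 had median differences of -0.76, -0.64 and -0.67 between BHLHE40-KD and LM-EV cells at the 3 times, from -0.78 to -0.59 over the 6 pairs of arrays, and 90.4% of them were lower when untreated. The 395 other genes on chromosome 15 had medians of 0.53, 0.54 and 0.54, from 0.50 to 0.55 over the pairs, and 84.3% of them were higher. The median on chromosome 10 was -0.27, -0.28 and -0.33, and on chromosome 5 -0.22, -0.17 and -0.20. Chromosomes 9 (-0.22) and 11 (-0.27) carried no member. These 6 chromosomes, each with an untreated median more than 0.2 from 0, held 14 members, of which 9 passed at 1 or more times, where 39.9% of 2818 other genes on them did. Of the 30 members elsewhere 5 passed, where 24.7% of 9457 other genes did. The chromosomes were picked by the same line differences that are counted here, so a higher share on them follows in part from that choice. Within a line, the medians of all chromosomes after 48 h of hypoxia lay between -0.07 and 0.05 in LM-EV and between -0.08 and 0.05 in BHLHE40-KD cells. Copies of DNA were not measured, and their part in these differences was not tested.

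**Figure D4:**
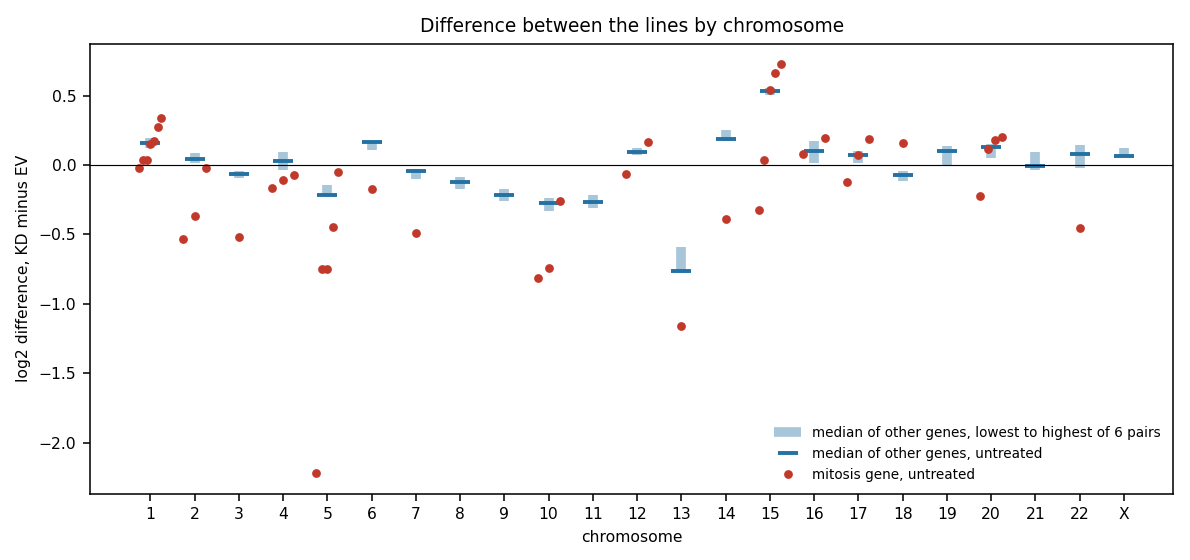
Log2 difference of BHLHE40-KD minus LM-EV cells (y axis) by chromosome (x axis); dark lines are the untreated medians of the genes other than the members, pale bars their lowest to highest value over the 6 pairs of arrays, and points the members in untreated cells. The bars of chromosomes 13 (median -0.76) and 15 (median 0.53) stand apart from the rest, CKAP2 is the point on 13, and CCNB2, PRC1 and KIF23 are the 3 high points on 15.

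Taken gene by gene, with up to 50 tested genes on each side as neighbours, the median of the neighbours, averaged over the 3 times, had the sign of the member for all 14 members that passed between the lines and for 29 of the 44 members. How often this held over all genes was not counted, so these counts do not set the members apart. For BUB1 the median of the neighbours was near 0 and turned at 48 h (-0.02, -0.06 and 0.04), so that its sign says little there. CKAP2 on chromosome 13 lay among neighbours with medians of -0.78, -0.62 and -0.73, and 19 or 20 of its 100 neighbours were lower than CKAP2 itself at each time. On chromosome 15 the neighbours of CCNB2 had medians of 0.58, 0.64 and 0.64, those of KIF23 0.65, 0.65 and 0.66, and those of PRC1 0.64, 0.66 and 0.54. The differences of these 3 genes (0.73, 0.63 and 0.80 for CCNB2, 0.54, 0.90 and 0.57 for KIF23, and 0.66, 0.39 and 0.38 for PRC1) lay well inside the range of their neighbours: CCNB2, for example, was between the ranks 48 and 70 from the lowest among 101 genes. BUB1B and NUSAP1, also on chromosome 15 but with neighbours at 0.10 to 0.12 and 0.17 to 0.23, did not pass (-0.32, -0.15 and -0.41, and 0.04, -0.17 and 0.06). The neighbours of KIF11 (-0.30, -0.24 and -0.34) and CDK1 (-0.21, -0.22 and -0.36) on chromosome 10, and of PTTG1 (-0.36, -0.29 and -0.41) and CDC25C (-0.33, -0.29 and -0.31) on chromosome 5, were shifted by less than the genes when untreated. These genes still lay within the range of their neighbours. From the lowest of 101 genes, KIF11 had the ranks 18, 26 and 45, CDK1 17, 35 and 26, PTTG1 19, 29 and 50, and CDC25C 17, 11 and 16. HMMR, near PTTG1 on chromosome 5, had neighbours at -0.38, -0.29 and -0.41 and stood far below them, as the fifth lowest of the 101 genes in untreated cells and the eighth lowest at 6 h and 48 h.

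With each chromosome centred on its own median in each array, an alternative added after the values were seen, 7 members passed between the lines when untreated, 5 at 6 h and 6 at 48 h, against 12.5%, 13.7% and 11.4% of the 12319 genes with a place. HMMR (-2.00, -2.00 and -1.57, limma adjusted p = 0.00119, 0.00106 and 0.0036) and CDC25C (-0.53, -0.67 and -0.51, limma adjusted p = 0.0366, 0.0158 and 0.0448) kept their calls at all 3 times. BUB1 (-0.60) and ANLN (-0.47) kept theirs in untreated cells, and CENPA (0.49) and NDC80 (0.57) theirs at 48 h. DLGAP5 when untreated (-0.61, limma adjusted p = 0.0438) and NDC80 at 6 h (0.48, limma adjusted p = 0.0449) passed here without a call in the main fit. The calls of CKAP2 (-0.42, -0.40 and -0.41), CCNB2 (0.21, 0.11 and 0.30), KIF23, PRC1, KIF11, PTTG1, CDK1 and AURKA were lost. Some of these kept much of their size: CDK1 (-0.52) and PTTG1 (-0.53) when untreated and AURKA at 6 h (0.36) missed the threshold (limma adjusted p = 0.0717, 0.0641 and 0.0761). KIF11 was at -0.45 when untreated and -0.34 at 6 h, and PTTG1 at -0.44 at 6 h. Little was left of PRC1 when untreated (0.14) and of KIF23 at 48 h (0.07), while KIF23 at 6 h was at 0.38. BUB1B (-0.84, -0.66 and -0.92) and NUSAP1 (-0.48, -0.69 and -0.44), on chromosome 15, passed at all 3 times in this setting only. Their near neighbours were shifted by much less (0.10 to 0.23) than the medians of 0.53 to 0.54 of the whole chromosome. Centring on the chromosome thus took off more than the shift around these genes. For NDC80 it took off less: its neighbours were at 0.24 and 0.21 at 6 h and 48 h, against chromosome 18 medians of -0.03 and -0.07. Of the genes of the other lists, all 7 on chromosome 13 (BORA, SKA3, CDC16, PDS5B, TFDP1, RB1 and RFC3) passed as lower at 1 or more times and 5 of them at all 3, where 63.6% and 38.3% of the 209 other genes on the chromosome did. Of the 4 on chromosome 15 (OIP5, ARHGAP11A, KNL1 and ZWILCH), 1 passed, where 57.2% of 395 other genes did.

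Few members passed the test under hypoxia. Against untreated cells, 0 of 44 members passed in LM-EV cells at 6 h (0.559% of all genes) and at 48 h (1.88%), and in BHLHE40-KD cells 0 passed at 6 h (5.16%) and 1, CDC25B, at 48 h (5.18% of all genes, and 2.75% lower). Between 48 h and 6 h, 0 passed in LM-EV (0.227%) and in BHLHE40-KD cells (1.93%). At an unadjusted limma p under 0.05 there were 3 members in LM-EV cells at 6 h (17.6% of all genes) and 11 at 48 h (20.8%), and 5 (21.2%) and 6 (23.2%) in BHLHE40-KD cells. From 6 h to 48 h there were 9 in LM-EV (14.5%) and 9 in BHLHE40-KD cells (20.5%). The members' counts were below these shares at 6 h in both lines and in BHLHE40-KD cells at 48 h, and near them elsewhere. As a group, the members were slightly lower at 48 h. The median difference at 48 h was -0.23 in LM-EV cells, with 41 of 44 members (93.2%) lower against 51.9% of all genes, and -0.17 in BHLHE40-KD cells, with 33 (75%) lower against 54%. In both experiments alike 32 members (72.7%) were lower in LM-EV cells, against 35.3% of all genes, and 24 (54.5%) in BHLHE40-KD cells, against 35.9%. At 6 h the medians were -0.03 and 0.02, and from 6 h to 48 h they were -0.21 and -0.19. By the 1.5-fold rule in both experiments no member changed at 6 h or 48 h against untreated cells (6.09% and 7.69% of all genes in LM-EV, 8.33% and 9.21% in BHLHE40-KD cells). From 6 h to 48 h CDC25C alone was lower by that rule, in LM-EV (4.97% of all genes) and in BHLHE40-KD cells (7.43%). In each line the 6 h and the 48 h comparison share the untreated arrays.

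**Figure D5:**
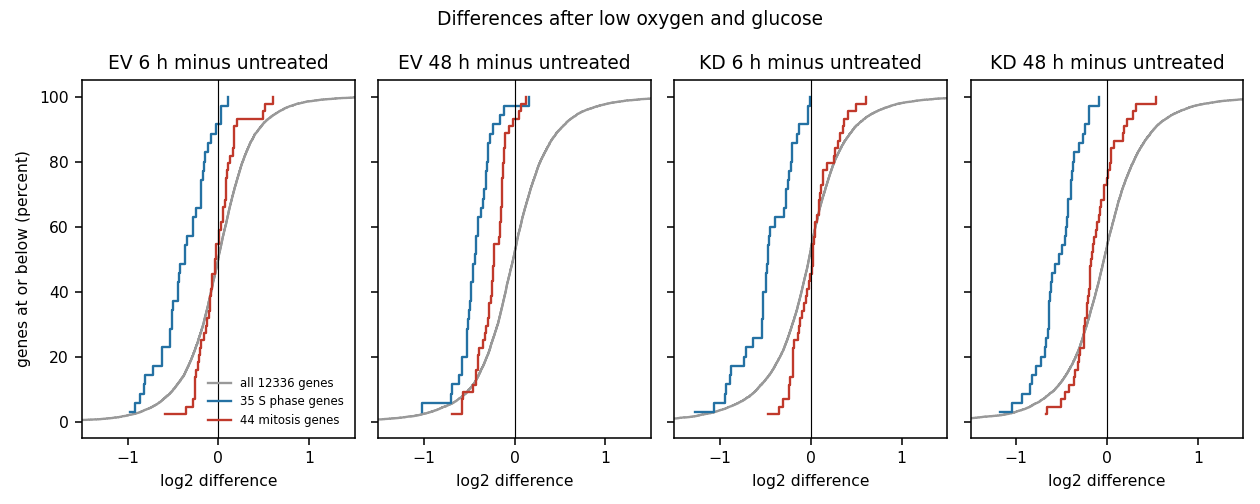
Share of genes at or below a log2 difference (y axis, percent) against that difference from untreated cells (x axis) for the 44 members, 35 S phase genes and all 12336 genes tested, by line and time. At 48 h the members lie left of all genes by a small amount (medians of -0.23 in LM-EV and -0.17 in BHLHE40-KD cells), and the S phase genes lie further left at both times (-0.37 to -0.52).

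The single call was CDC25B, which fell by 0.67 on the log2 scale in BHLHE40-KD cells at 48 h (SE 0.138, limma adjusted p = 0.0418). Both 48 h arrays (9416 and 8235) lay below both untreated arrays (12887 and 15247), and in LM-EV cells the 48 h arrays (8847 and 7897) also lay below the untreated ones (13261 and 11595), with a difference of -0.57 that did not pass (0.0843). The call rested on narrow margins: it was kept without the untreated BHLHE40-KD array of experiment 1 and lost without any 1 of the other 11, at adjusted p-values of 0.0602 to 0.195. FOXM1 had signals of 4661 and 4371 in untreated LM-EV cells, 3919 and 3617 at 6 h, and 3465 and 2616 at 48 h, and of 3964 and 4689, 3943 and 3404, and 3151 and 2369 in BHLHE40-KD cells. Each 48 h array was below the untreated arrays of its line, at -0.58 in LM-EV and -0.66 in BHLHE40-KD cells (SE 0.172, limma adjusted p = 0.118 and 0.0724). KIF11 at -0.69 (0.0843) and NDC80 at -0.58 (0.0734) were next in LM-EV cells at 48 h. On all 4 pairs of 48 h and untreated arrays 19 members were lower, where 20.5% of all genes were: CCNF, CDC25B, CDC25C, PLK1, AURKA, TTK, CENPE, CENPF, NDC80, KIF11, KIF20A, KIF23, TOP2A, DLGAP5, NUSAP1, CDCA3, FOXM1, CKAP2 and GTSE1.

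By their brightest probes, CDC25C and NEK2 had another course, with their highest signals at 6 h. CDC25C went from 1106 and 1181 in untreated LM-EV cells to 1895 and 1594 at 6 h and back to 1018 and 932.6 at 48 h, and from 717.6 and 645.4 to 1023 and 897.5 and to 670.5 and 547.6 in BHLHE40-KD cells. In each line both 6 h arrays of this probe were above the other 4. Its other probes did not hold to this in LM-EV cells. They had 935.8 and 925.1, and 1264 and 1053, when untreated, against 1213 and 933.4, and 1328 and 1136, at 6 h. In BHLHE40-KD cells the second held to it. The first did not, with 676 when untreated (experiment 1) and 585.7 at 6 h (experiment 2). By the brightest probe none of the differences passed: 0.61 and 0.49 from untreated to 6 h (SE 0.127, limma adjusted p = 0.078 and 0.0719), and -0.84 and -0.66 from 6 h to 48 h (0.0673 and 0.0508). NEK2, a centrosomal kinase that splits the centrosomes, had signals of 4022 and 3576, 5728 and 5138, and 3308 and 3610 in LM-EV cells and of 4638 and 3809, 5658 and 7228, and 4228 and 3591 in BHLHE40-KD cells. Again the 6 h arrays were the highest of each line, at 0.52 and 0.61 above untreated cells (SE 0.175, limma adjusted p = 0.195 and 0.0988), and the values did not pass. With the dimmer NEK2 probe this held in BHLHE40-KD cells only: in LM-EV cells it had 653.2 and 532.2 untreated and 787.5 and 643 at 6 h.

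The lists of related genes give a measure of the rest of the cell cycle. Of 35 measured S phase genes, which work in DNA replication, 32 were lower in LM-EV cells at 6 h and 34 at 48 h, and all 35 in BHLHE40-KD cells at both times, with medians of -0.37, -0.44, -0.47 and -0.52. Of all genes, 50.2% and 51.9% were lower in LM-EV and 52.9% and 54% in BHLHE40-KD cells. In LM-EV cells 0 and 1 of the S phase genes passed (0.559% and 1.88% of all genes). In BHLHE40-KD cells 5 and 4 passed, all lower (5.16% and 5.18% of all genes in either direction). They included POLE2, a subunit of DNA polymerase epsilon, at 6 h (-1.07, SE 0.145, limma adjusted p = 0.0138) and CDT1, which loads the replicative helicase, at 48 h (-1.18, SE 0.168, limma adjusted p = 0.0189). The mitosis members thus had smaller median differences than the S phase genes at both times in both lines, and the difference between the lists was not tested. CDKN1A rose in LM-EV cells at 48 h (0.74, SE 0.14, limma adjusted p = 0.0499). In BHLHE40-KD cells, where it was higher when untreated, its differences were 0.12 at 6 h and 0.10 at 48 h, and its interaction did not pass (limma adjusted p = 0.824 at 6 h and 0.668 at 48 h).

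Whether the lines responded differently to hypoxia was tested as an interaction. At 6 h 0 of 44 members passed (0.0243% of all genes) and at 48 h 0 passed (0% of all genes), with 0 and 1 members at an unadjusted limma p under 0.05, against 6.13% and 6.76% of all genes. That 1 was CENPA, which was lower at 48 h in LM-EV cells (-0.40) and higher in BHLHE40-KD cells (0.19), a difference of 0.59 (SE 0.177, limma adjusted p = 0.639). The medians of the interaction were 0.10 at 6 h and 0.07 at 48 h. The median SE of an interaction was 0.216 for the members. Interactions as large as -0.72 at 6 h and 0.59 at 48 h did not pass, so that differences in response well above that SE could be missed with 2 arrays a group. In all, 15 members passed in 1 or more comparisons and 29 in none, and the share of all genes that did was not counted.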

How the data were processed

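RNA of 12 cultures was hybridized to Illumina HT-12 arrays. The authors deposited normalized intensity values (linear, after background subtraction and quantile normalization in GenomeStudio, whose version is not given in the sources used here) and, in a second table, bead signals as intensity with a detection p-value per probe, which the authors exported from the same program. The bead signals of 5 of 12 columns disagreed with the normalized values of their array (rank correlation 0.816 to 0.904), and 3 of these repeated another column, so bead signals were used for experiment 1 alone, as an alternative.

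Values under 16 were set to 16 (38.7% of values) and log2 was taken. Of 30105 probes with 1 gene symbol in the platform annotation (17197 had none or several), those with a detection p under 0.05 on each array of any group were kept (22207 of all probes passed this filter). Each gene took its probe of highest mean, which left 12336 genes. limma 3.58.1 in R 4.3.3 fitted the 6 groups and the slide (residual degrees of freedom 5, prior 2.43), with 9 comparisons and 2 interactions, each adjusted by Benjamini-Hochberg, and a threshold of 0.05. The script was tested on simulated data. Deviations of arrays on the same slide correlated at -0.02 to 0.28 over 15 pairs of groups (median 0.16, 13 over 0.1); p-values measure the spread between these cultures.

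Signals on every array are given for BHLHE40, the member of each role with the highest mean, members that passed (at most 8 a comparison) and the 4 largest rises and falls. BUB1, ANLN and FOXM1, named with their arrays beyond that rule, and the genes singled out by chromosome were chosen after their values were seen. Of each list at most 4 genes that passed were named by size, and the genes of chromosomes 13 and 15 outside that rule. The members and lists were chosen with earlier results of these data known. Chromosomes, gene order and promoters came from RefSeq tables of GRCh38.p14, read with Python 3.11.15 and pandas 2.3.3 (figures with matplotlib 3.10.9). Alternatives were the block, the detection filter, the floor, the scaling, the choice of probe, each experiment alone and each array left out.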

Additional observations from a re-analysis of the deposited data

How the results depend on the processing

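Over the alternatives, no call of a member in a comparison reversed its direction. All 26 calls were kept when arrays were centred on their median, with a constant of 32 added, with cyclic loess, with a floor of 64 and with a detection p under 0.01 required on all 12 arrays; 25 were kept with the mean of all probes, 23 without a detection filter, 16 without the replicate block, 11 with each chromosome centred, and 225 of 312 when 1 array was left out. Without the replicate block the members called fell to 0 for BHLHE40-KD at 48 h against untreated, 5 between the lines at 6 h and 4 at 48 h. The shares of all genes fell there as well, to 2.5%, 13.4% and 11.9%. The calls lost were those of ANLN, AURKA, BUB1, CENPA, NDC80, CDC25B, KIF11 (untreated and 6 h) and KIF23 (6 h and 48 h), at adjusted p-values from 0.0515 to 0.223. With detection p under 0.01 on all arrays, which tested fewer genes (9548), the hypoxia comparisons gained calls: in LM-EV 1 at 6 h (CDC25C), 3 at 48 h (CDC25B, NDC80, KIF11) and 1 from 6 h to 48 h, and in BHLHE40-KD 2 (CDC25C, NEK2), 2 (CDC25B, FOXM1) and 3 (CDC25C, HMMR, NEK2). The calls over all genes rose as well, to 480, 740 and 174 of the 9548 in LM-EV and 1008, 1116 and 740 in BHLHE40-KD cells. Between the lines this setting added KIF20A, KIF23 and GTSE1 when untreated, CDK1 and NDC80 at 6 h, and CDK1 and GTSE1 at 48 h. CDK1 and KIF23 then passed at all 3 times. Of all genes, 26.6%, 25.2% and 23.6% passed between the lines in this setting. Under hypoxia a floor of 64 gave 1, 2 and 1 in LM-EV cells (2.09%, 4.39% and 0.3% of all genes). In BHLHE40-KD cells it gave 1 at 6 h (6.74%) and 2 from 6 h to 48 h (4.35%). From 6 h to 48 h in BHLHE40-KD cells the constant, the centring and cyclic loess gave 1 each (3.56%, 2.18% and 2.4% of all genes). Without a detection filter the count at 48 h in BHLHE40-KD cells was 0 (1.92% of all genes). The mean of all probes gave 1 call at 6 h in BHLHE40-KD cells (5.37% of all genes). Any probe alone (added after the values were seen) gave 2 there and 1 from 6 h to 48 h. Between the lines the mean of probes added BUB3 (-0.71, limma adjusted p = 0.0107) and KIF23 (0.63, 0.0325) when untreated. It also added PTTG1 at 48 h (-0.48, limma adjusted p = 0.0388). Of all genes, 18% passed when untreated and 17% at 48 h in this setting. With each chromosome centred, 5 members passed between the lines at 6 h.

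The members' medians were small and moved more easily. Between the lines (untreated, 6 h, 48 h) they were -0.102, -0.104 and 0.008 with the mean of probes, -0.152, -0.132 and -0.047 (reversed at 48 h) with chromosomes centred, -0.073, -0.114 and 0.004 in experiment 1 alone and -0.093, -0.103 and 0.016 in experiment 2 alone. They were -0.083 (untreated) and -0.077 (6 h) with arrays centred, -0.08 (untreated) with cyclic loess, and -0.109 (6 h) and 0.004 (48 h) with bead signals. For BHLHE40-KD at 6 h the median was 0.054 with the mean of probes, 0.057 with arrays centred and -0.012 (reversed) in experiment 2 alone. With chromosomes centred it was -0.002 for LM-EV at 6 h and -0.111 for BHLHE40-KD at 48 h. The interaction at 6 h reversed in experiment 1 alone (-0.028) and with its bead signals (-0.027), and that at 48 h was 0.129 with the mean of probes and 0.092 in experiment 2 alone. The cause of these moves was not tested.

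When 1 array was left out, the members called ranged from 4 to 10 in untreated cells (lowest without either LM-EV untreated array, and 5 without the BHLHE40-KD array of experiment 2), from 2 to 9 at 6 h (2 without the LM-EV 6 h array of experiment 2, 3 without the BHLHE40-KD one, 4 without either of experiment 1) and from 2 to 7 at 48 h (2 and 3 without the LM-EV 48 h arrays of experiments 2 and 1, 4 and 3 without the BHLHE40-KD ones of experiments 1 and 2). For BHLHE40-KD at 48 h against untreated the range was 0 to 1. Fewer of all genes also passed between the lines when untreated without any 1 untreated array, and at 6 h without any 1 array at 6 h. The same held at 48 h without either LM-EV 48 h array. The members' medians ranged from -0.106 to -0.053, -0.102 to -0.047 and -0.062 to 0.113 between the lines (reversed at 48 h without the BHLHE40-KD array of experiment 1, at -0.062, or the LM-EV array of experiment 2, at -0.04), from -0.289 to -0.160 for LM-EV 48 h against 6 h, from -0.206 to -0.106 and -0.015 to 0.036 for BHLHE40-KD at 48 h and 6 h (reversed at 6 h without its experiment 2 array), and from 0.012 to 0.138 and 0.065 to 0.130 for the interaction at 6 h and 48 h. Calls near the threshold were lost most often: CDC25B in BHLHE40-KD cells at 48 h was kept in 1 of the 12 fits, KIF23 at 48 h in 2, NDC80 at 48 h in 2, KIF11 at 6 h in 4, AURKA and ANLN in 6, BUB1 in 7, CENPA in 8 and PTTG1 at 6 h in 8, with adjusted p of at most 0.195, 0.808, 0.186, 0.204, 0.16, 0.154, 0.158, 0.137 and 0.149 over all alternatives.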

Other observations

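Several members are read by more than 1 probe, and the probes did not always agree, a comparison chosen after the values were seen. Of the 20 members with more than 1 probe (44 probes), the probes had the same sign of the line difference in 16 members when untreated and in 18 at 6 h and 48 h, and in 3, 4 and 6 members only some of the probes passed in a limma fit over all probes. The probes of HMMR spread most in size (by 0.78, 0.84 and 1.57), and both were lower at all 3 times. For BUB3, the checkpoint protein, the brightest probe did not pass at any time (-0.26, -0.33 and -0.34), while another was lower in BHLHE40-KD cells at all 3 times (-0.67, -0.61 and -0.59, SE 0.161, limma adjusted p = 0.032, 0.0424 and 0.0489), and the remaining 2 were lower when untreated (-0.92 and -0.97). For KIF23 the dimmer probe was higher at all 3 times (0.73, 1.04 and 0.74, SE 0.197, limma adjusted p = 0.0458, 0.0143 and 0.0462). A second PTTG1 probe was lower at 48 h as well (-0.53, SE 0.127, limma adjusted p = 0.033). The dimmer NEK2 probe rose in BHLHE40-KD cells at 6 h (0.70, SE 0.124, limma adjusted p = 0.0302), fell by 0.71 from 6 h to 48 h (adjusted p = 0.0441) and was higher than in LM-EV cells at 6 h (0.53, adjusted p = 0.0278), where its brighter probe did not pass. The second KIF11 probe fell in BHLHE40-KD cells at 6 h (-0.72, SE 0.142, limma adjusted p = 0.0399). Which transcripts the probes of a gene share was not tested.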
